A study of Mus musculus with 9 samples.

Results

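The nuclear genes of the mitochondrial respiratory chain and of ATP synthase were examined in mouse embryonic stem cell (mESC) lines. They were chosen by name, as the transcript clusters whose annotation gives a single symbol that begins with Nduf, Uqcr, Atp5 or Cox and a digit, or that is Sdha, Sdhb, Sdhc or Sdhd. A transcript cluster is a set of array probes read as 1 transcript, and most name 1 gene. Some name several genes, and a gene can have several clusters. Where a symbol had several clusters, the one with the highest mean over the 9 lines was kept, which gave 97 genes of the 19938 genes with a single symbol. Of these, 34 belonged to complex I, 4 to complex II, 8 to complex III, 18 to complex IV and 17 to complex V, and the other 16 encode factors that help to assemble complexes I and IV. Ndufa4, once assigned to complex I, and its relative Ndufa4l2 were counted with complex IV, and Cox7a2l, which joins complexes III and IV, with the assembly factors. Cox7c, Cox16 and Ndufb4 have only clusters that name a second symbol too, and were left out. In all, 7 clusters of chain genes were shared in this way.

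All lines came from C57BL/6 blastocysts, were female, and were collected at the eighth passage after growth with leukemia inhibitory factor and 2 differentiation inhibitors, first on mouse embryonic fibroblasts and then on gelatin. The 3 mESCWM lines came from embryos made by in vitro fertilization (IVF) and grown to blastocysts in Whitten's medium with 20% O2. The 3 mESCKAA lines came from IVF embryos grown in potassium simplex optimized medium that held amino acids, with 5% O2. The 3 mESCFB lines, the control, came from blastocysts flushed from the uterus after mating. After derivation all lines were kept under 20% O2. Each line grew out of a single blastocyst and was measured on 1 Affymetrix Mouse Gene 1.0 ST array. All spread reported here therefore joins differences between lines and between arrays, which cannot be told apart. The number of arrays limits the precision. All values are log2 levels after robust multiarray normalization, and differences are between group means on that scale.

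All 10 markers of mouse embryonic stem cells that were looked up, with Pou5f1, Nanog and Esrrb among them, had a mean over the lines above the median level of the tested clusters. Between mESCWM and mESCFB, Pou5f1 differed by -0.26 (unadjusted p = 0.0091 from limma) and Tdgf1 by -0.27 (unadjusted p = 0.0029), and neither passed the adjusted threshold. In that comparison 4 of the 10 were above 0, among them Nanog at 0.26 (unadjusted p = 0.54 from limma), and the median of the 10 was -0.08. Of the 12 fibroblast markers, 9 had a mean above that median, which alone does not show that they were expressed. The summed log2 level of the 12 was 67.3 to 70.0 in mESCWM, 65.2 to 67.2 in mESCKAA and 64.1 to 64.8 in mESCFB, so the mESCWM range lay just above that of mESCKAA. For Vim, Acta2, Fn1 and Bgn the difference between mESCWM and mESCFB was 0.57, 1.10, 0.73 and 0.90, each at an unadjusted p under 0.05. Of the 12, 11 were higher in mESCWM than in mESCFB. The 7 primitive endoderm markers had a summed level of 32.9 to 34.9 in mESCWM, 35.4 to 42.8 in mESCKAA and 33.1 to 40.4 in mESCFB, and the 6 trophectoderm markers one of 40.2 to 42.4, 40.5 to 43.4 and 40.2 to 42.3 in mESCWM, mESCKAA and mESCFB. The part of other cell types in the differences below was not tested.

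The respiratory chain passes electrons from NADH through complex I, and from succinate through complex II, to ubiquinone, then through complex III and cytochrome c to complex IV, which hands them to oxygen. Complexes I, III and IV pump protons across the inner mitochondrial membrane, and complex V, the ATP synthase, uses their return flow to make ATP. Mouse embryonic stem cells of the naive state use both respiration and glycolysis, and most chain subunits are nuclear genes whose proteins join a small core made from mitochondrial DNA.

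Most of these genes gave a strong array signal, since 68 of 97 had a mean of 9 or more. In all, 94 lay at or above the median level of the tested clusters, which was 4.67 and alone does not show expression. Levels of different clusters depend on their probes and are not compared here as amounts of RNA. The 6 with a mean under 6 were Cox4i2, Cox6a2, Cox7b2, Cox8b, Cox8c and Ndufa4l2, subunit forms known from lung, heart and skeletal muscle, testis or hypoxic cells. Their means were 4.92 for Cox4i2, 4.73 for Cox6a2, 4.03 for Cox7b2, 3.73 for Cox8b, 4.64 for Cox8c and 4.74 for Ndufa4l2, near the median of all tested clusters. Their partners of general use, Cox4i1, Cox6a1, Cox7b, Cox8a and Ndufa4, had means of 11.37, 12.08, 11.57, 10.58 and 11.91. Cox6b2, the testis form of Cox6b1, and Cox7a1, the heart and muscle form of Cox7a2, were exceptions, with means of 8.99 and 7.81.

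No gene of the chain passed the test across all genes. With limma and an adjusted p under 0.05 over 23410 tested clusters, 0 of 97 were called between mESCWM and mESCFB, between mESCKAA and mESCFB, or between mESCWM and mESCKAA, and the background was 0%, 0% and 0% of all clusters. The lowest adjusted p of a chain gene was 0.808, 0.918 and 0.752. A rank product, the test the study's methods name, run here on the deposited values, called 0 of 97 in each comparison, against 0.137%, 0.15% and 0.303% of all clusters. No chain gene differed by more than 0.5 between any pair of groups. The 95% confidence interval of a difference had a median half-width of 0.19 over the 97 genes, with a range of 0.14 to 0.92.

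At an unadjusted p under 0.05, 0 chain genes were higher and 2 lower in mESCWM than in mESCFB, against 2.73% of all clusters higher and 3.17% lower. Between mESCKAA and mESCFB, 0 were higher and 0 lower, against 2.73% and 2.08%. Between mESCWM and mESCKAA, 1 was higher and 8 lower, or 8.25% of the 97, against 3% and 3.29%. The 2 lower than in mESCFB were Sdhd and Ndufaf4. The 8 lower than in mESCKAA were Sdhd, Ndufaf4, Ndufa5, Ndufa12, Ndufb2, Uqcrh, Atp5mpl and Cox8b, and Ndufa6 was the 1 higher. Without mESCWM1 the count between mESCWM and mESCKAA was 2, without mESCKAA1 3 and without mESCKAA2 5. The shares of all clusters with a line left out are not given here. The comparisons share lines, so these lists are not independent of each other.

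Most differences were small and most lay below 0 in mESCWM. The median difference of the 97 genes between mESCWM and mESCFB was -0.038, with 70 of 97 below 0, against 0.0046 and 48.5% of all tested clusters. Between mESCKAA and mESCFB it was -0.018, with 59 below 0, against 0.0067 and 47.7%. Between mESCWM and mESCKAA it was -0.033, with 59 below 0, against -0.0068 and 52.0%. Among the 1863 clusters with a mean of 9 or more the medians were -0.014, -0.028 and 0.0086 in the same order. These clusters thus lay slightly above 0 between mESCWM and mESCKAA. The 68 chain genes in that range had medians of -0.056, -0.012 and -0.042. Quantile normalization of the deposited values left the median between mESCWM and mESCFB at -0.020, with 55 below 0, and turned that between mESCKAA and mESCFB to 0.010. Leaving out mESCWM1 brought the median between mESCWM and mESCKAA to -0.0020.

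**Figure D1:**
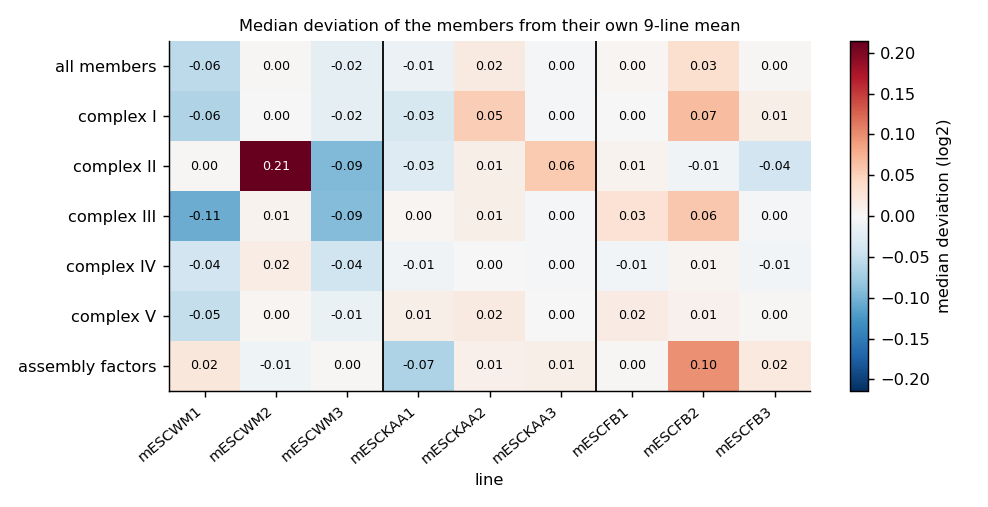
Median deviation (log2) of the genes of each complex from their own mean over the 9 lines, with 1 column per line (mESCWM, mESCKAA and mESCFB from left to right) and 1 row per complex. Over all 97 genes mESCWM1 was lowest at -0.06 and mESCFB2 highest at 0.03, and the 4 genes of complex II in mESCWM2 had the largest value, 0.21.

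Single lines stood apart in the map of median deviations by line. Line mESCWM1 lay below the gene's own mean for 64 of 97 genes and had the lowest of all 9 values for 28. Line mESCFB2 lay above it for 70 and had the highest value for 27. The median deviation in mESCWM1 was -0.056, against -0.021 in mESCWM3 and 0.0021 in mESCWM2, so the mESCWM lines did not share 1 level. The highest line was mESCKAA2 under quantile normalization and mESCFB1 under median centring, and mESCWM1 was the lowest in both. In complex III mESCWM1 and mESCWM3 were both low, at -0.11 and -0.09, with mESCWM2 at 0.01.

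In 7 genes all mESCWM lines lay below all of the other 6 lines: Sdhd, Uqcrh, Uqcr11, Ndufa4, Cox6b1, Cox6c and Atp5d. They are 7.22% of the 97, against 1.53% of all tested clusters. In 0 chain genes did all mESCWM lines lie above the other 6, against 1.26% of all clusters. This count was chosen after the values had been seen. Under quantile normalization it was 2 lower (Cox6c and Sdhd) and 1 higher (Cox17), against 1.55% and 1.89% of all clusters, and under median centring 7 lower, of which 5 were the same genes, against 2.07% of all clusters. In the values as deposited the gap was very small for Ndufa4, Atp5d, Uqcr11 and Cox6b1. For Ndufa4 the highest mESCWM line was at 11.8418 (mESCWM3) and the lowest other line at 11.8426 (mESCFB3).

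Counted by pairs of groups, 12 of 97 genes (12.4%) had all mESCWM lines below all mESCFB lines, against 4.55% of all clusters, and 1 (Cox7a1) had them above, against 3.58%. The 5 among the 12 that overlapped with mESCKAA were Atp5g3, Cox7a2, Cox7a2l, Ndufb7 and Ndufb9. Under quantile normalization 2 lay below and 4 above, against 4.60% and 6.02% of all clusters, and under median centring 20 and 1, against 7.62% and 3.03%. Between mESCKAA and mESCFB, 2 genes (Atp5mpl and Cox6b1) had all mESCKAA lines above, against 4.38%, and 2 (Cox17 and Ndufa6) had them below, against 3.7%. Under quantile normalization 7 lay above and 1 below, against 5.13% and 4.46% of all clusters, and under median centring 1 and 11, against 4.15% and 6.93%. Between mESCWM and mESCKAA, 12 (12.4%) had all mESCWM lines below, against 4.63%, and 3 (Cox17, Ndufa6 and Ndufv2) had them above, against 4.03%. That count was 13 below and 2 above under quantile normalization, against 5.34% and 6.42% of all clusters, and 12 below and 2 above under median centring, against 5.55% and 5.74%.

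**Figure D2:**
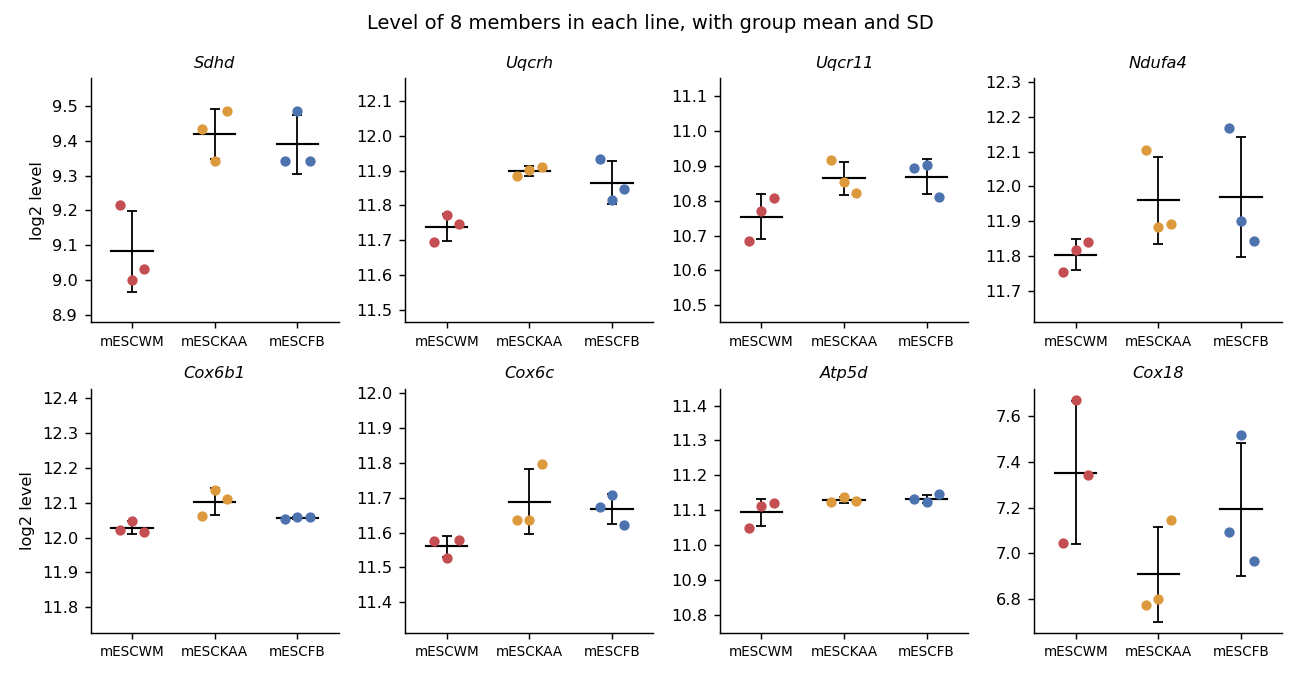
Log2 level of 8 genes in each line (points), with the group mean (wide bar) and SD (error bar, n = 3 lines); the groups run mESCWM, mESCKAA, mESCFB and each panel has its own axis. In the first 7 panels all mESCWM points lie below all others, by a wide gap only for Sdhd, and in the last, Cox18, all groups overlap.

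Complex I, the NADH dehydrogenase, is the largest complex of the chain. Its 34 genes had a median difference of -0.057 between mESCWM and mESCFB, with 26 below 0. The median was -0.026 with 20 below 0 between mESCKAA and mESCFB, and -0.044 with 23 below 0 between mESCWM and mESCKAA. An unadjusted p under 0.05 was found for 4 of them, Ndufa5, Ndufa12, Ndufb2 and Ndufa6, each between mESCWM and mESCKAA, so 1 was higher and 3 lower, against 3% and 3.29% of all clusters. The differences ran between -0.30 and 0.14 for mESCWM against mESCFB.

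Ndufa5, an accessory subunit of the matrix arm, had levels of 8.97, 9.09 and 9.27 in mESCWM, 9.51, 9.34 and 9.42 in mESCKAA, and 9.49, 9.27 and 9.25 in mESCFB. All mESCWM lines were below all mESCKAA lines, and mESCWM3 lay within the mESCFB range. The difference between mESCWM and mESCKAA was -0.31 (standard error 0.10, unadjusted p = 0.016 from limma). Ndufb2, a small subunit of the membrane arm, gave 9.76, 9.67 and 9.89 in mESCWM, 10.09, 10.01 and 9.94 in mESCKAA, and 10.09, 9.87 and 9.89 in mESCFB. Here too mESCKAA1 and mESCFB1 were the 2 highest lines, and the difference between mESCWM and mESCKAA was -0.24 (standard error 0.093, unadjusted p = 0.031).

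Ndufa12, also an accessory subunit of the matrix arm, lay at 10.04, 10.18 and 10.21 in mESCWM, 10.38, 10.38 and 10.29 in mESCKAA, and 10.29, 10.30 and 10.17 in mESCFB. The mESCWM lines were below all mESCKAA lines, with a difference of -0.20 (standard error 0.077, unadjusted p = 0.027). Ndufa6, a subunit of the matrix arm that binds the acyl carrier protein Ndufab1, went the other way, at 8.85, 8.98 and 8.74 in mESCWM, 8.58, 8.71 and 8.58 in mESCKAA, and 8.76, 8.93 and 8.73 in mESCFB. The mESCKAA lines were the 3 lowest. The difference between mESCWM and mESCKAA was 0.23 (standard error 0.091, unadjusted p = 0.033), and that between mESCKAA and mESCFB was -0.18. Ndufab1 itself, which also serves mitochondrial fatty acid synthesis, was among the steadiest, at 10.84 to 10.93 in mESCWM, 10.89 to 10.90 in mESCKAA and 10.90 to 10.94 in mESCFB. Of the core subunits, Ndufv2 was at 9.37 to 9.43 in mESCWM, 9.15 to 9.36 in mESCKAA and 9.36 to 9.43 in mESCFB, so that the mESCWM and mESCKAA lines did not overlap. Ndufs1, the largest core subunit, ranged over 7.10 to 7.23 in mESCWM, 6.77 to 7.24 in mESCKAA and 7.16 to 7.26 in mESCFB, with mESCKAA2 lowest.

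Complex II, succinate dehydrogenase, also belongs to the citric acid cycle, and has no subunit from mitochondrial DNA. Its genes did not move as a unit. Sdhd, 1 of the 2 membrane anchors, had the smallest p of all chain genes in both comparisons with mESCWM. Its levels were 9.22, 9.00 and 9.03 in mESCWM, 9.43, 9.34 and 9.48 in mESCKAA, and 9.34, 9.49 and 9.34 in mESCFB. Every mESCWM line was below every other line, and the mESCKAA and mESCFB lines overlapped. The difference from mESCFB was -0.31 (standard error 0.087, 95% interval -0.51 to -0.11, unadjusted p = 0.0068, adjusted p = 0.808 from limma), and that from mESCKAA was -0.34 (standard error 0.087, unadjusted p = 0.0040, adjusted p = 0.752). It lay between -0.37 and -0.26 against mESCFB when 1 line was left out at a time.

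The other anchor, Sdhc, had 9.75, 9.98 and 9.45 in mESCWM, 9.67, 9.63 and 9.55 in mESCKAA, and 9.63, 9.62 and 9.52 in mESCFB. Sdha, the flavoprotein that oxidizes succinate, had 8.84, 8.91 and 8.76 in mESCWM, 8.67, 8.57 and 8.80 in mESCKAA, and 8.78, 8.73 and 8.71 in mESCFB. Sdhb, the iron-sulfur subunit, had 9.11, 9.54 and 9.29 in mESCWM, 9.08, 9.33 and 9.33 in mESCKAA, and 9.23, 9.27 and 9.22 in mESCFB. These 3 had positive differences between mESCWM and mESCFB, of 0.13, 0.09 and 0.07, each within 2 standard errors of 0, and mESCWM2 was the highest line for each. All groups overlapped for all 3. Sdhaf2, which attaches the flavin to Sdha and stands outside the name rule, was at 7.04 to 7.22 in mESCWM, 7.32 to 7.36 in mESCKAA and 7.32 to 7.59 in mESCFB. Its difference between mESCWM and mESCFB was -0.34 (unadjusted p = 0.0047, adjusted p = 0.806 from limma), and the 4 complex II assembly factors were all below 0 there.

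Complex III, the cytochrome bc1 complex, had medians of -0.097 between mESCWM and mESCFB, -0.020 between mESCKAA and mESCFB and -0.039 between mESCWM and mESCKAA, with 6 of 8 genes below 0 in each. Uqcrh, the hinge protein that helps cytochrome c1 to meet cytochrome c, had 11.70, 11.77 and 11.75 in mESCWM, 11.88, 11.90 and 11.91 in mESCKAA, and 11.93, 11.82 and 11.85 in mESCFB. The mESCWM lines were the 3 lowest. The difference was -0.16 from mESCKAA (standard error 0.066, unadjusted p = 0.039) and -0.13 from mESCFB (unadjusted p = 0.087). Uqcr11, a small membrane subunit, gave 10.68, 10.77 and 10.81 in mESCWM, 10.92, 10.85 and 10.82 in mESCKAA, and 10.89, 10.90 and 10.81 in mESCFB, so the highest mESCWM line and the lowest other line were nearly level. The 2 core proteins Uqcrc1 and Uqcrc2 were the 2 genes above 0, at 0.05 and 0.04 between mESCWM and mESCFB. Uqcrfs1, the Rieske iron-sulfur protein, was at -0.13 (unadjusted p = 0.10), and Uqcrb at -0.10.

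The genes with the lowest p-values were also read at the level of their promoters, since members of the chain are known to share the regulators NRF1, GABP (an ETS factor) and YY1. The windows ran from 250 bases before to 50 after the annotated start (RefSeq, build GRCm38.p6) and were found for 79 of the 97 genes. They were searched on both strands for GCATGCGC (NRF1), CCGGAAGT (ETS) and AAGATGGC (YY1), and no matches of different motifs shared a base. The NRF1 letters read nearly the same on both strands, so a full site gives 2 overlapping matches, and each gene was counted once. NRF1 letters were in the windows of 12 of 79 genes (15.2%), against 3.94% of 17492 protein-coding genes. ETS letters were in 8 (10.1%), against 5.69%, and YY1 letters in 12 (15.2%), against 3.57%. At least 1 of the 3 was in 30 (38.0%), against 12.3%. Of the 12 genes with YY1 letters, 9 had them between bases 10 and 40 after the start, against 263 of 624 protein-coding genes (42.1%). The YY1 letters were in 7 of 31 complex I windows and 3 of 15 complex V windows, and in 0 of 12 complex IV windows. A match is a run of letters and not a measured binding site.

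The windows shown are those of Sdhd and Ndufaf4, with the lowest unadjusted p between mESCWM and mESCFB, of Uqcrh, with the lowest in complex III, of Uqcr11, which holds 2 kinds of match, and of Ndufs6, a complex I subunit with YY1 letters just after the start. Capitals mark the matches.
Sdhd, chr9:50603800-50604099, minus strand, no match: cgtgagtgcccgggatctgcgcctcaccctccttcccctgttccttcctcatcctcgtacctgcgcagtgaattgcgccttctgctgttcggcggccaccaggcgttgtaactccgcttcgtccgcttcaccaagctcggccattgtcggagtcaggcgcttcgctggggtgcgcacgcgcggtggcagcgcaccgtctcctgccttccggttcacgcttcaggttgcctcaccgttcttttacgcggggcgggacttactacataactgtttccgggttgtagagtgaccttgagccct
Ndufaf4, chr4:24897833-24898132, plus strand, NRF1: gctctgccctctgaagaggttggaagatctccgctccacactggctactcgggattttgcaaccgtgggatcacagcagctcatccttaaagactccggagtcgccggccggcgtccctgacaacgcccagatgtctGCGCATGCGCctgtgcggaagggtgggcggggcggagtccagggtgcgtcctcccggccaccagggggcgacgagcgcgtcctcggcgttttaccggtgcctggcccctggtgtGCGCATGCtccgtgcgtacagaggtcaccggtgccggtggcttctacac
Uqcrh, chr4:116075021-116075320, minus strand, ETS: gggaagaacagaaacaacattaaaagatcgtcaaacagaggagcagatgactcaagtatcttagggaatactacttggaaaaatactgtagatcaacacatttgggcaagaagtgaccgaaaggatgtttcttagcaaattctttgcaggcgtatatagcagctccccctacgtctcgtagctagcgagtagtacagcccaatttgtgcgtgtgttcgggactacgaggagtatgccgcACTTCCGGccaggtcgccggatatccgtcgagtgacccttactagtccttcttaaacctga
Uqcr11, chr10:80406772-80407071, minus strand, ETS then NRF1: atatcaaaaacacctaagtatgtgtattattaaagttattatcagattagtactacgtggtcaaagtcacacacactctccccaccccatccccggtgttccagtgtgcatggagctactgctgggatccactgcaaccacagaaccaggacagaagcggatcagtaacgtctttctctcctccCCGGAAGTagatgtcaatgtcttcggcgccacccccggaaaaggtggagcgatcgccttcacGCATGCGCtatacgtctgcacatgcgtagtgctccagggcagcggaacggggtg
Ndufs6, chr13:73328433-73328732, minus strand, YY1: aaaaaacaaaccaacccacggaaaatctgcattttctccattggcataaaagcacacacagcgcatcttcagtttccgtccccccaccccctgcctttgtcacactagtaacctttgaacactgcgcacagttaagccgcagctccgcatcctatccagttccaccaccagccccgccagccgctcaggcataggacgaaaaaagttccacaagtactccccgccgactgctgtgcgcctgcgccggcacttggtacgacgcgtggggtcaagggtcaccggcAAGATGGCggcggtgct
The NRF1 letters of Ndufaf4 began at bases -113 and -111, where 2 matches overlap, and at base 2, the ETS letters of Uqcrh at -11, those of Uqcr11 at -66 with NRF1 letters at -4, and the YY1 letters of Ndufs6 at base 34, counting the start as 1 and the base before it as -1. Ndufs6 itself showed little spread, with 10.47 to 10.52 in mESCWM, 10.44 to 10.57 in mESCKAA and 10.44 to 10.54 in mESCFB. No relation between matches and differences was tested.

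Complex IV, cytochrome c oxidase, had medians of -0.026 between mESCWM and mESCFB (13 of 18 below 0), 0.0086 between mESCKAA and mESCFB (8 below 0) and -0.014 between mESCWM and mESCKAA (10 below 0). Of its general subunits, Cox6b1, which faces the intermembrane space, was nearly constant, at 12.02, 12.05 and 12.02 in mESCWM, 12.06, 12.14 and 12.11 in mESCKAA, and 12.05, 12.06 and 12.06 in mESCFB. The groups stood in order without overlap, although the differences from mESCFB were only -0.03 in mESCWM and 0.05 in mESCKAA. Cox6c, a membrane subunit, had 11.58, 11.53 and 11.58 in mESCWM, 11.63, 11.63 and 11.80 in mESCKAA, and 11.67, 11.71 and 11.62 in mESCFB, with a difference of -0.11 between mESCWM and mESCFB (unadjusted p = 0.18). Cox5b was the second steadiest of the 97, at 11.27 to 11.31 in mESCWM, 11.31 to 11.32 in mESCKAA and 11.28 to 11.33 in mESCFB.

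Among the tissue forms, Cox7a1 had 8.08, 8.01 and 7.90 in mESCWM, 7.42, 8.18 and 7.70 in mESCKAA, and 7.69, 7.67 and 7.63 in mESCFB. All mESCWM lines were above all mESCFB lines, and mESCKAA2 was the highest of all. The difference between mESCWM and mESCFB was 0.33 (standard error 0.17, unadjusted p = 0.077), the largest of the 97 in that comparison. Its partner Cox7a2 had 11.10, 11.09 and 11.16 in mESCWM, 11.22, 11.16 and 11.17 in mESCKAA, and 11.18, 11.16 and 11.17 in mESCFB, with a difference of -0.06 between mESCWM and mESCFB.

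Cox6b2 varied between lines within each group, at 9.38, 9.36 and 8.65 in mESCWM, 8.43, 9.36 and 8.98 in mESCKAA, and 8.84, 9.03 and 8.86 in mESCFB. Ndufa4l2, known as a hypoxia-responsive gene, had the widest spread of all 97, at 4.49, 5.74 and 4.30 in mESCWM, 3.97, 5.24 and 4.60 in mESCKAA, and 4.65, 4.92 and 4.72 in mESCFB. The groups overlapped for both genes, and line 2 was the highest of each group for Ndufa4l2. Cox8b, the muscle form of Cox8a, gave 3.43, 3.60 and 3.63 in mESCWM, 3.72, 3.97 and 4.15 in mESCKAA, and 3.89, 3.47 and 3.69 in mESCFB. It differed between mESCWM and mESCKAA by -0.39 (standard error 0.14, unadjusted p = 0.021), but every value lay below the median of all tested clusters.

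Complex V, the ATP synthase, was the steadiest. Its 17 genes had a median SD over the 9 lines of 0.059, and its differences between mESCWM and mESCFB ran from -0.10 to 0.03, with a median of -0.036 and 14 of 17 below 0. The median was -0.0060 between mESCKAA and mESCFB (10 below 0) and -0.034 between mESCWM and mESCKAA (12 below 0). Atp5d, the delta subunit of the central stalk, had 11.05, 11.11 and 11.12 in mESCWM, 11.12, 11.14 and 11.12 in mESCKAA, and 11.13, 11.12 and 11.14 in mESCFB. All mESCWM lines were the lowest, yet the difference from mESCFB was -0.04, less than its standard error of 0.061. Atp5mpl, a small proteolipid of the membrane part, had 11.86, 11.97 and 11.84 in mESCWM, 12.04, 12.11 and 12.04 in mESCKAA, and 11.97, 11.97 and 11.86 in mESCFB. The mESCKAA lines were the 3 highest, and the difference between mESCWM and mESCKAA was -0.17 (standard error 0.071, unadjusted p = 0.041). The 3 genes of the c-ring subunit encode the same mature protein but differed in spread. Atp5g2 was the steadiest of the 97, at 11.79 to 11.80 in mESCWM, 11.76 to 11.79 in mESCKAA and 11.77 to 11.83 in mESCFB, and Atp5g3 was at 11.55 to 11.66 in mESCWM, 11.63 to 11.75 in mESCKAA and 11.68 to 11.70 in mESCFB. Atp5g1 spread most, at 11.33 to 11.86 in mESCWM, 11.57 to 11.67 in mESCKAA and 11.63 to 11.83 in mESCFB. For Atp5g2 the value was the same, 11.7942, in mESCWM1, mESCWM3, mESCKAA2, mESCKAA3 and mESCFB3. The source of such equal values was not tested.

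The 16 assembly factors had medians of -0.053 between mESCWM and mESCFB (10 below 0), -0.064 between mESCKAA and mESCFB (14 below 0) and 0.044 between mESCWM and mESCKAA (7 below 0). Ndufaf4, which helps to build the matrix arm of complex I, had 6.62, 6.78 and 7.06 in mESCWM, 7.08, 7.04 and 7.30 in mESCKAA, and 7.05, 7.20 and 7.16 in mESCFB. Of the mESCWM lines, mESCWM1 and mESCWM2 were below all others and mESCWM3 was level with the lowest of them. The difference was -0.31 from mESCFB (standard error 0.12, unadjusted p = 0.031) and -0.32 from mESCKAA (unadjusted p = 0.030). Without mESCWM1 it was -0.21 from mESCFB.

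Cox18, which inserts the tail of the mitochondrially made COX2 protein into the inner membrane, had 7.04, 7.67 and 7.34 in mESCWM, 6.78, 6.80 and 7.15 in mESCKAA, and 7.09, 7.52 and 6.97 in mESCFB. The ranges overlapped in all comparisons. The difference was 0.16 between mESCWM and mESCFB (unadjusted p = 0.44), -0.28 between mESCKAA and mESCFB (unadjusted p = 0.18) and 0.44 between mESCWM and mESCKAA (standard error 0.20, 95% interval -0.0019 to 0.89, unadjusted p = 0.051), with no call by limma or the rank product. Without mESCWM2 the difference between mESCWM and mESCFB was 0.0012. Cox11, a copper chaperone of the same complex, was at 0.21 between mESCWM and mESCKAA (unadjusted p = 0.051). Cox17, the chaperone that delivers copper in the intermembrane space, had 10.61, 10.49 and 10.53 in mESCWM, 10.42, 10.49 and 10.43 in mESCKAA, and 10.58, 10.52 and 10.53 in mESCFB, so the mESCKAA lines were the 3 lowest, by -0.09 against mESCFB.

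**Figure D3:**
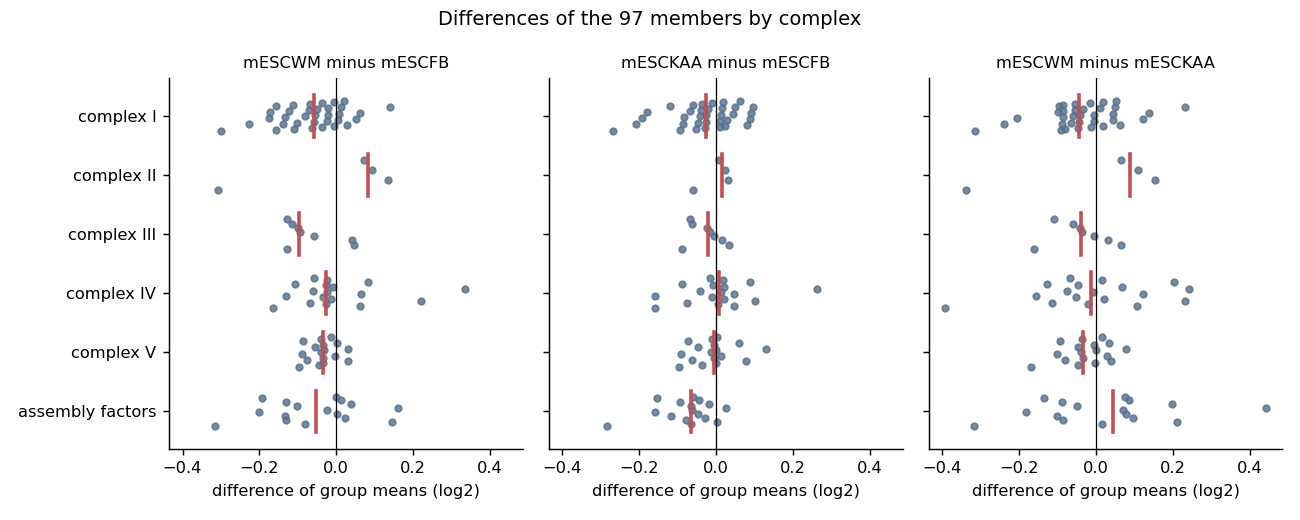
Difference of group means (log2) of each of the 97 genes (points) by complex in the 3 comparisons, with the median of each complex as a red bar; vertical offsets only separate the points. All differences lie within 0.5 of 0, and Sdhd stands apart from the other 3 complex II genes in both comparisons with mESCWM.

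The chromosome of a gene, which the name rule did not use, went with high values in single lines. The 4 chain genes on chromosome 6 (Ndufa4, Ndufa5, Ndufa9 and Ndufb2) had their 2 highest values in mESCKAA1 and mESCFB1. Ndufa4 had 11.75, 11.82 and 11.84 in mESCWM, 12.10, 11.88 and 11.89 in mESCKAA, and 12.17, 11.90 and 11.84 in mESCFB. Ndufa9 had 9.17, 9.03 and 9.32 in mESCWM, 9.42, 9.32 and 9.08 in mESCKAA, and 9.43, 9.23 and 9.27 in mESCFB. The other 490 genes of chromosome 6 at or above the median level deviated from their own means by a median of 0.16 in mESCKAA1 and 0.24 in mESCFB1, and by -0.08 to -0.02 in the other 7 lines. The 4 chain genes deviated by medians of 0.19 and 0.19 in these 2 lines.

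The differences of 3 of these genes depended on which lines were included. The difference of Ndufa4 between mESCWM and mESCFB was -0.17 with all lines and -0.07 without mESCFB1, and that between mESCWM and mESCKAA was -0.16 with all lines and -0.08 without mESCKAA1. For Ndufa5 the difference between mESCWM and mESCFB was -0.15 without mESCFB1, and that between mESCWM and mESCKAA was -0.27 without mESCKAA1 (unadjusted p = 0.055). For Ndufb2 they were -0.11 and -0.20 (unadjusted p = 0.097), so neither gene had an unadjusted p under 0.05 between mESCWM and mESCKAA without mESCKAA1. Leaving out other lines did the same, since that difference was -0.24 for Ndufa5 without mESCWM1 (unadjusted p = 0.059) and -0.19 for Ndufb2 without mESCWM2 (unadjusted p = 0.10). The part of the chromosome in these differences was not tested.

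On chromosome 11, which holds Uqcr10, Uqcrq, Atp5g1, Atp5h, Cox10 and Cox11, the 953 other genes deviated by a median of 0.12 in mESCWM2 and by -0.02 to 0.01 in the other 8 lines. Uqcrq, a complex III subunit, had 10.70, 11.01 and 10.61 in mESCWM, 10.81, 10.82 and 10.80 in mESCKAA, and 10.86, 10.85 and 10.78 in mESCFB. Atp5g1 had 11.33, 11.86 and 11.67 in mESCWM, 11.67, 11.57 and 11.62 in mESCKAA, and 11.63, 11.83 and 11.69 in mESCFB, so mESCWM2 was highest and mESCWM1 lowest of all lines for Atp5g1. Its difference between mESCWM and mESCFB was -0.10 with all lines, -0.22 without mESCWM2 and 0.05 without mESCWM1.

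On the X chromosome lie Ndufa1, Ndufb11 and Cox7b. Ndufa1, a small membrane subunit of complex I, had 10.07, 10.12 and 10.22 in mESCWM, 10.14, 10.22 and 10.15 in mESCKAA, and 10.10, 10.70 and 10.52 in mESCFB. Lines mESCFB2 and mESCFB3 stood above the other 7. Its differences from mESCFB were -0.30 in mESCWM (unadjusted p = 0.062) and -0.27 in mESCKAA (unadjusted p = 0.090), and without mESCFB2 they were -0.17 and -0.14. Ndufb11 had 10.71, 10.79 and 10.65 in mESCWM, 10.64, 10.73 and 10.62 in mESCKAA, and 10.72, 11.07 and 10.82 in mESCFB, and Cox7b 11.53, 11.51 and 11.63 in mESCWM, 11.49, 11.57 and 11.54 in mESCKAA, and 11.56, 11.73 and 11.58 in mESCFB. Both were highest in mESCFB2, also in their second clusters, where Ndufb11 was at 9.25 and Cox7b at 10.78 in that line. The second clusters differed more from mESCFB than the chosen ones. For Ndufb11 the difference was -0.34 against -0.16 in mESCWM, and -0.35 against -0.21 in mESCKAA. For Cox7b it was -0.29 against -0.07 in mESCWM, and -0.21 against -0.09 in mESCKAA. The 346 other X-linked genes at or above the median level deviated by medians of 0.29 in mESCFB2 and 0.14 in mESCFB3, and by -0.12 to 0.0033 in the other 7 lines. Whether these values share a source was not tested.

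**Figure D4:**
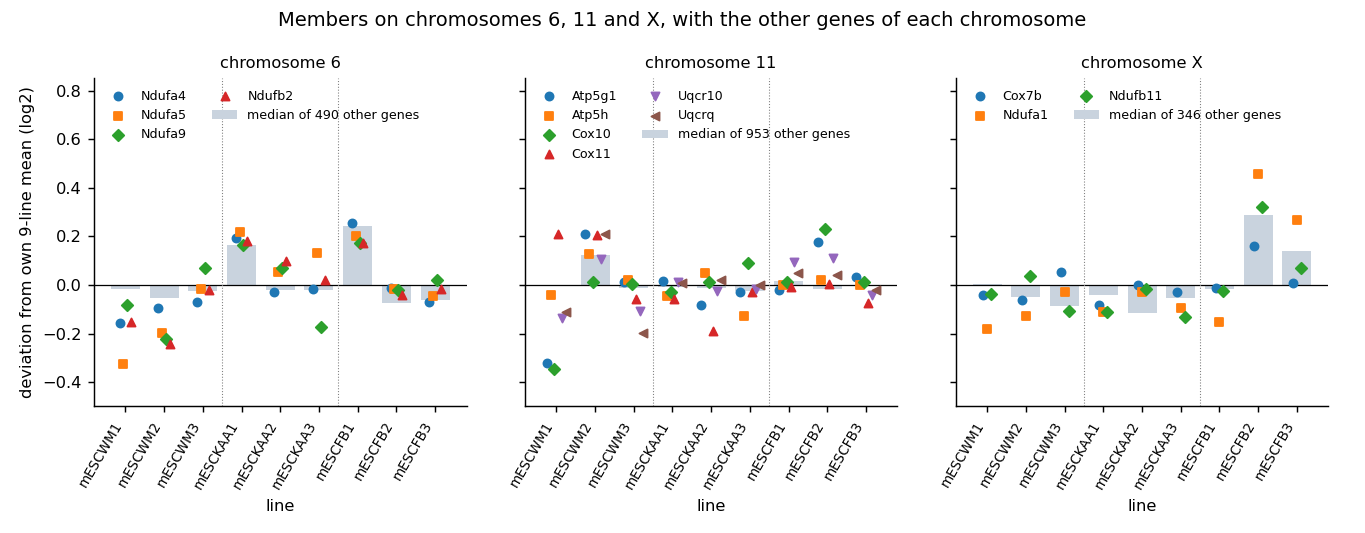
Deviation (log2) of the chain genes on chromosomes 6, 11 and X from their own mean over the 9 lines (symbols), with the median of the other genes of the chromosome at or above the median level as bars, by line (mESCWM, mESCKAA and mESCFB from left to right). Bars stand out in mESCKAA1 and mESCFB1 for chromosome 6 (0.16 and 0.24), in mESCWM2 for chromosome 11 (0.12) and in mESCFB2 and mESCFB3 for the X chromosome (0.29 and 0.14), and the chain genes lie high in the same lines apart from Cox7b in mESCFB3 and Cox10 in mESCWM2.

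The chain genes varied little over lines. The median SD over the 9 lines was 0.092, against 0.162 for all tested clusters. With a mean of 9 or more, it was 0.072 for 68 chain genes, against 0.085 for 1863 clusters. By complex the median SD was 0.098 for complex I, 0.144 for complex II, 0.078 for complex III, 0.082 for complex IV, 0.059 for complex V and 0.137 for the assembly factors. The 3 widest were Ndufa4l2 (0.52), Cox6b2 (0.34) and Cox18 (0.31), and the 3 narrowest Atp5g2 (0.019), Cox5b (0.021) and Atp5d (0.028). Some genes, Atp5g2 and Cox5b among them, had exactly equal values in several lines, which lowers their SD. Over pairs of the 91 chain genes with a mean of 6 or more, the median correlation across the 9 lines was 0.10, against 0.019 over pairs of clusters at or above the median level. It was 0.17 within complex I, -0.021 within complex II, 0.22 within complex III, 0.044 within complex IV, 0.10 within complex V and 0.058 within the assembly factors. All pairs share the 9 arrays, so these values describe the arrays only.

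**Figure D5:**
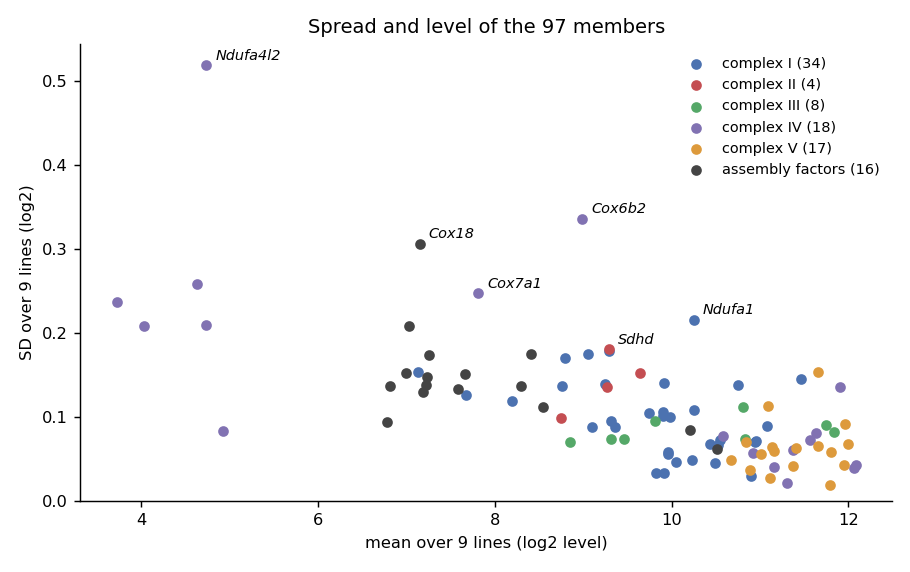
SD over the 9 lines (log2) against the mean over the 9 lines (log2 level) for each of the 97 genes, coloured by complex. Spread is low at high levels, with complex V genes (median SD 0.059) at the lower right, and Ndufa4l2, Cox6b2 and Cox18 have the highest values, 0.52, 0.34 and 0.31.

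Other genes of the same pathway gave no call either. Of the 7 complex I assembly factors outside the name rule with a cluster, Timmdc1 was at 7.22, 7.19 and 6.96 in mESCWM, 6.86, 6.78 and 6.69 in mESCKAA, and 6.80, 6.86 and 6.53 in mESCFB, a difference of 0.39 between mESCWM and mESCFB (unadjusted p = 0.0071, adjusted p = 0.808 from limma), and the other 6 were below 0. Of 7 complex III genes outside the rule, 6 were below 0 between mESCWM and mESCFB, among them Uqcc3, an assembly factor for cytochrome b, at -0.28 (unadjusted p = 0.043). Cyc1, another of these 7, was at -0.20 between mESCKAA and mESCFB (unadjusted p = 0.034). Of 11 complex IV assembly factors, 7 were below 0 between mESCWM and mESCFB, among them Higd1a at -0.19 (unadjusted p = 0.046). Of 4 genes for ATP synthase assembly and inhibition, Atpaf1, which binds the beta subunit before assembly, was at -0.34 (unadjusted p = 0.0059), and the other 3 were above 0. Among 16 transcription factors and coactivators of mitochondrial biogenesis, Tfam, which packages and transcribes mitochondrial DNA, was at -0.28 between mESCWM and mESCFB (unadjusted p = 0.019) and -0.35 between mESCKAA and mESCFB (unadjusted p = 0.0066). Polg, the mitochondrial DNA polymerase, was at 0.28 between mESCWM and mESCFB (unadjusted p = 0.0081) and Gabpa, the ETS subunit of GABP, at -0.34 between mESCKAA and mESCFB (unadjusted p = 0.012). In that list 8 of 16 were above 0 between mESCWM and mESCFB and 4 of 16 between mESCKAA and mESCFB. The 2 cytochrome c genes had no unadjusted p under 0.05. Of 13 subunits made from mitochondrial DNA, 2 had a cluster of their own, COX2 and ND3, with differences of 0.02 and 0.04 between mESCWM and mESCFB. Between mESCWM and mESCKAA, Timmdc1 (0.35), Taco1 (0.34), Tfb1m (0.31) and Polg (0.19) were higher at an unadjusted p under 0.05 from limma. In these lists 0 genes were lower at that level.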

How the data were processed

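RNA of 9 lines, 3 per group, was measured on 1 array each. Expression Console and R 3.1.0 are named in the submitters' processing notes, and the methods name robust multiarray normalization, so the values the authors deposited are log2 levels with background correction and normalization between arrays already done. Line medians over the tested clusters ran from 4.64 to 4.70. Of 35556 clusters, the 23410 with a gene symbol were tested. Groups came from the sample titles. Group means were fitted over all 9 lines with limma 3.58.1 (lmFit and eBayes, R 4.3.3, statmod 1.5.0), two-sided, with Benjamini-Hochberg adjustment over all tested clusters and a threshold of 0.05. With 3 lines against 3, an exact permutation test of 1 gene cannot go below p = 0.1. The rank product used 9 pairs of lines and 100 permutations within arrays. The limma fit was tested on generated data with changes of 1 and 2 (log2) for mESCWM against mESCFB. It recovered 83 of 100 and 96 of 100 of them, with 5 false calls. Changes as small as those of the chain genes were not generated, so this check does not cover them. The rank product recovered most of the generated changes too, but its false share there was above its nominal threshold. Python 3.11.15, numpy 2.4.6, pandas 2.3.3, scipy 1.17.1 and matplotlib 3.10.9 were used for tables and figures.

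The 97 genes and all gene lists were chosen with earlier results of these data known. The genes named were those with the smallest p in each comparison (10) and complex (1), Cox18, the tissue forms and their partners, the X-linked and Sdh genes, the 3 with the largest and the 3 with the smallest SD, and genes whose clusters disagreed in sign. Other genes, and the grouping by chromosome, were added after their values had been seen. Chromosomes came from RefSeq for all 97 genes. Among the 17 genes with several clusters, clusters of 1 gene differed in sign in 13 of 51 gene and comparison pairs. Alternatives tried were other sets of tested clusters, quantile normalization, median centring, another variance model, the mean of all clusters of a gene, the 6 compared lines alone, the line number as a block, and leaving out each line.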

Additional observations from a re-analysis of the deposited data

Results flagged for a closer look

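Cox6b1 was the 1 gene of the 97 whose lines moved in opposite directions in both IVF groups. All mESCWM lines lay below all mESCFB lines, with a difference of -0.028, and all mESCKAA lines lay above them, with a difference of 0.047. Both differences were smaller than the narrowest half-width of a 95% confidence interval among the 97 genes, 0.14. The share of all clusters with this order of groups is not given here. The mESCFB lines spanned only 12.05 to 12.06, and mESCFB2 and mESCFB3 had exactly the same value, 12.0583. The difference between mESCWM and mESCKAA was -0.07 (unadjusted p = 0.26 from limma), so it did not pass the test.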

How the results depend on the processing

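No chain gene was called by limma under any alternative in any comparison, and the lowest adjusted p with 1 line left out was 0.361, 0.544 and 0.413 for mESCWM against mESCFB, mESCKAA against mESCFB and mESCWM against mESCKAA. Other counts depended on the processing, and the cause was not tested. Genes at an unadjusted p under 0.05 between mESCWM and mESCFB numbered 4 under median centring, 7 under the trend and robust variance model and 1 to 6 with 1 line left out. Between mESCKAA and mESCFB they numbered 2 under median centring, 2 under the variance model and 0 to 3 with 1 line left out. Between mESCWM and mESCKAA they numbered 14 under the variance model and 2 (without mESCWM1) to 9 with 1 line left out. The shares of all clusters at that level under these settings are not given here. These counts therefore do not tell the chain genes apart from other clusters. Genes whose groups did not overlap numbered 6 under quantile normalization, 21 under median centring and 13 to 30 with 1 line left out between mESCWM and mESCFB, 8, 12 and 4 to 20 between mESCKAA and mESCFB, and 15 to 27 with 1 line left out between mESCWM and mESCKAA. Smaller groups overlap less often by construction. For these pairs of groups the shares of all clusters with 1 line left out are not given here. The counts with a line left out therefore cannot be set against other clusters. Genes with all mESCWM lines outside the other 6 numbered 3 under quantile normalization and 7 to 16 with 1 line left out, 16 (0 higher and 16 lower) without mESCWM2, against 4.06% and 4.48% of all clusters, and 16 (4 higher and 12 lower) without mESCWM3, against 4.90% and 5.28%. The median difference was 0.010 between mESCKAA and mESCFB under quantile normalization, and -0.035 to -0.0020 between mESCWM and mESCKAA with 1 line left out.

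The labels number the lines 1 to 3 in each group. Deviations of same-numbered lines correlated at 0.33, 0.17 and -0.01 for number 1, 0.15, 0.23 and 0.12 for number 2 and 0.08, 0.03 and 0.05 for number 3. Of the 9 lines, 8 correlated best with a line of their own number. The labels do not say what the numbers stand for, and the main tests did not pair the lines. With the line number as a block, 4 genes between mESCWM and mESCFB and 2 between mESCKAA and mESCFB had an unadjusted p under 0.05. Between mESCWM and mESCKAA 9 did, and 0 passed the adjusted threshold in any comparison. Of all 23410 tested clusters, 1714, 1443 and 1876 had such an unadjusted p in that model, in the same order of comparisons. The share of chain genes was below that of all clusters in both comparisons with mESCFB, and slightly above it between mESCWM and mESCKAA.

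Of 144 differences of named genes, 57 turned sign in at least 1 setting. In 8 the difference was larger than its standard error with all lines or in that setting, and none of these passed the test. Between mESCWM and mESCFB these were Cox8c (-0.20 to 0.29 with 1 line left out) and Ndufa4l2 (-0.37 to 0.35). Between mESCKAA and mESCFB it was Cox7a1 (-0.10 to 0.28). Between mESCWM and mESCKAA they were Atp5g1 (-0.12 to 0.14), Cox6a2 (-0.18 to 0.18), Cox8c (-0.15 to 0.33) and Ndufs1 (-0.0074 to 0.23), and Atp5pb was at -0.087 when its clusters were averaged.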
